A study of Mus musculus with 6 samples.

Results

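The regions described here are assembled loci without a gene name whose annotation names the ubiquitin ligase NEDD4. They were chosen by 2 properties of the expression table: an identifier that is not an Ensembl gene, and a listing in the KEGG pathway of ubiquitin mediated proteolysis. This rule selected 518 of the 60193 rows listed, and 518 of the 6493 loci that were assembled from the reads. The rule used no expression value, but the loci exist only because reads were assembled there, so the set is not independent of the levels. The part of each group in the assembly was not tested. Every one of the 518 loci carried the KEGG ortholog NEDD4, so they are called NEDD4-annotated loci.

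RNA-seq was performed on metaphase II (MII) oocytes of ICR mice aged 42 to 45 weeks, an advanced reproductive age. The IVM group comprised 3 samples of oocytes that had been stripped of cumulus cells at the germinal vesicle stage and matured in vitro in M16 medium for 12 h. The IVO group comprised 3 samples of oocytes that had matured in vivo and were taken from the oviduct 14 h after hCG, with cumulus cells removed by hyaluronidase. Mice of both groups had been primed with PMSG, and only the IVO group received hCG. The labels give no genetic change or other agent for either group. Each sample pooled 20 oocytes from 3 mice, and the study describes the 3 samples of a group as biological replicates. A pool measures the RNA of many oocytes together, so fewer oocytes with a transcript and less of it in each oocyte cannot be told apart.

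NEDD4 is a ubiquitin ligase of the HECT class, which takes ubiquitin from an E2 enzyme onto its own catalytic domain and passes it to a substrate. A C2 domain binds membranes, WW domains bind short proline-rich motifs in substrates and adaptors, and the HECT domain carries the catalysis. The enzyme is known for marking membrane receptors and channels for endocytosis, and ubiquitin-dependent proteolysis drives the meiotic cell cycle of the oocyte.

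The annotation of the loci was narrow. None of the 518 had a gene name, and for 498 loci (96.1%) NEDD4 was the only ortholog listed. Of the other 20, EIF4E was a further ortholog of 9, EP300 of 5, SULT1 of 5 and KRAB of 2. All 518 were placed in the same 4 KEGG pathways, which were ubiquitin mediated proteolysis, endocytosis, tight junction and Epstein-Barr virus infection. A Swiss-Prot entry was given for mouse NEDD4 at 314 loci (60.6%) and for rat NEDD4 at 19, and 185 loci (35.7%) had none. Only 1 locus, MSTRG.18335, had a Pfam domain (Pkr1), and 0 loci had a HECT, WW or C2 domain, whereas the row of the gene Nedd4 lists HECT and WW domains. The best matches in the nr protein database fell on 29 proteins, and 3 predicted proteins without a functional name (rCG56442 with 202 loci, mCG1045525 with 170 and mCG1042149 with 67) took 439 loci (84.7%). NEDD4 was also the most common ortholog among assembled loci. Only 717 of the 6493 assembled loci had any ortholog, 518 of them NEDD4. Among the 199 other assembled loci with an ortholog, the most common were FMN1 with 47 loci and EIF4E with 46.

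The sequences of the assembled loci are not part of the data used here, so the same annotation was followed in Ensembl genes, whose transcripts are known. The NEDD4 ortholog was listed for 109 Ensembl genes, of which 54 are long noncoding RNA (lncRNA) genes, 52 belong to the TEC class, whose transcription still awaits experimental proof, 1 is the protein-coding gene Nedd4 and 2 are absent from the annotation used. The 20-base word found in the most of the 107 genes with reference transcripts is shown because it is what these noncoding genes share most often with a Nedd4 transcript. The lines below give it and the bases around it in the noncoding genes of this annotation with the highest mean FPKM among those that hold it, on GRCm39, 5′ to 3′, with the word in capitals. All are drawn in the orientation of the word, which is that of the transcript in Gm42437 and the reverse complement of the transcript in the others.
shared word: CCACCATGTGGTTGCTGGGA
Gm12976, lncRNA, chr4:129158679-129158708, minus strand: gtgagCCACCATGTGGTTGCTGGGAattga
Gm42437, TEC, chr3:40960278-40960307, minus strand: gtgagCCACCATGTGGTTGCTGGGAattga
Gm40437, lncRNA, chr12:70775978-70776007, plus strand: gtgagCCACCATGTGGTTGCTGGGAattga
Gm41611, lncRNA, chr17:71277686-71277715, minus strand: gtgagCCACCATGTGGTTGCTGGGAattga
9230114K14Rik, lncRNA, chr5:52355191-52355220, minus strand: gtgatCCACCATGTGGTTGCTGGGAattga

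The word or its reverse complement was present in transcripts of 59 of the 107 Ensembl genes with the NEDD4 ortholog (55.1%), against 1999 of the 52552 other Ensembl genes (3.8%) and 3.91% of all listed Ensembl genes. Within biotypes the shares were 61.5% of 52 TEC genes with the ortholog against 2.37% of the others, and 48.1% of 54 lncRNA genes against 3.13%. The word was chosen as the most frequent one in the first set, so these shares are a description. Of the 43 transcripts of Nedd4, 2 hold it, 1 in an untranslated region (Nedd4-207, from base 104 of 4034) and 1 in a retained-intron transcript without a coding sequence (Nedd4-205), both at chr9:72576060-72576089 on the plus strand. The genome holds 45160 exact copies over 22 chromosomes, with 22649 on the plus strand and 22511 on the minus strand. As background, these letters belong to the rodent B2 family of short interspersed elements, which are scattered through mouse introns and untranslated regions. No repeat annotation was used, and whether the 518 assembled loci hold the word was not tested.

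The loci were short. Their median listed length was 287.5 bases, with quartiles of 216 and 377.8 and a range from 200 to 2291. Of the 518, 210 (40.5%) were under 250 bases and only 7 reached 1000 bases. The 5975 other assembled loci had a median of 471 bases, and 18.1% of them were under 250, whereas the listed length of Nedd4 is 6035 bases.

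The values are FPKM, the fragments on a row scaled by its length and by the size of the library, where the length used is the part of the transcript where a whole fragment can start. Low values fell on steps, and from them the depth was inferred as 16500000 to 19300000 fragments for IVM and 17700000 to 18000000 for IVO oocytes. The inferred mean fragment length was 201 to 217 bases for IVM and 250 to 266 bases for IVO oocytes, without overlap. FPKM summed over all rows reached 1826738 to 2111776 for IVM and 1560813 to 1643682 for IVO oocytes.

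At loci of this size the fragment length sets what a fragment is worth. For a locus of 200 bases, 1 fragment was worth 2.76, 1.75 and 1.84 FPKM in the IVM samples and 5.99, 5.04 and 4.71 FPKM in the IVO samples. At 300 bases the worth was 0.666, 0.507 and 0.506 FPKM against 0.984, 0.878 and 0.843 FPKM, and at 1000 bases 0.0652 to 0.0773 FPKM against 0.074 to 0.0756. The same number of fragments on a short locus was therefore written as a higher FPKM in IVO than in IVM samples, while at 1000 bases the groups overlapped. A locus of 200 bases listed at 0 may hold up to 3 fragments, worth 5.26 to 8.29 FPKM in IVM and 14.1 to 18.0 FPKM in IVO samples, counting error only.

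**Figure D1:**
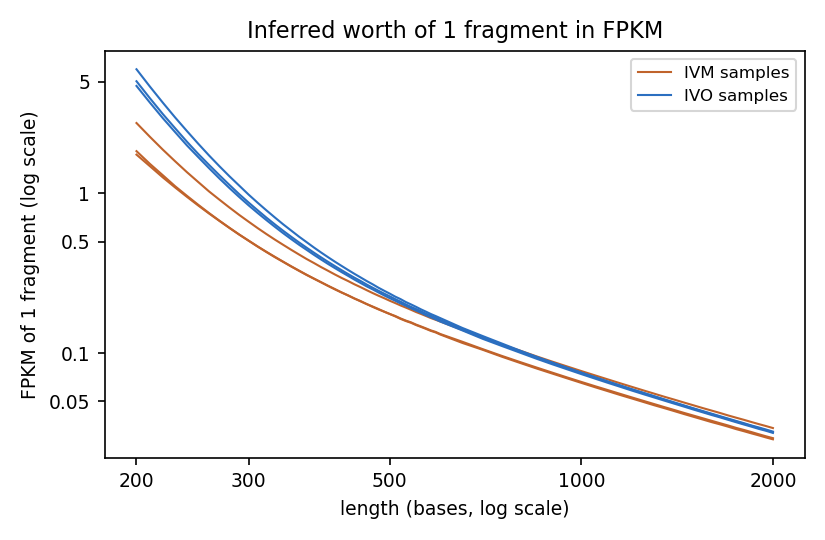
Inferred FPKM of 1 fragment (log scale) against locus length in bases (log scale), with 1 line per sample, 3 IVM and 3 IVO. The IVO lines run from 4.71 to 5.99 FPKM at 200 bases, above the IVM lines at 1.75 to 2.76 FPKM, and the lines come together at 1000 bases.

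As a group, the NEDD4-annotated loci had lower levels in IVO than in IVM oocytes. The IVM samples had a median over the loci of 30.0, 27.4 and 24.7 FPKM, and the IVO samples one of 8.62, 9.12 and 10.8 FPKM. Their summed FPKM was 71693, 67703 and 54219 in IVM and 36510, 38411 and 45347 in IVO, which is 3.42%, 3.21% and 2.97% of all FPKM against 2.34%, 2.46% and 2.76%. All 3 measures were higher in every IVM sample than in any IVO sample. With 3 samples a group, an exact two-sided permutation test cannot give a p below 0.1.

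The number of loci listed at 0 was 7, 6 and 10 for IVM against 49, 46 and 42 for IVO oocytes. At least 1 FPKM was listed for 499 to 503 loci in IVM and 439 to 456 in IVO samples, and 431 loci were above 0 in all 6 samples. Counted in inferred fragments, the median locus held 43.2, 51.2 and 44.9 fragments for IVM against 8.41, 10.1 and 12.3 for IVO oocytes. Only 339 loci held 3 fragments or more in every sample. The 10 loci with the highest values carried 40.3% to 42.5% of the summed FPKM of the loci for IVM and 47.9% to 51.9% for IVO oocytes.

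**Figure D2:**
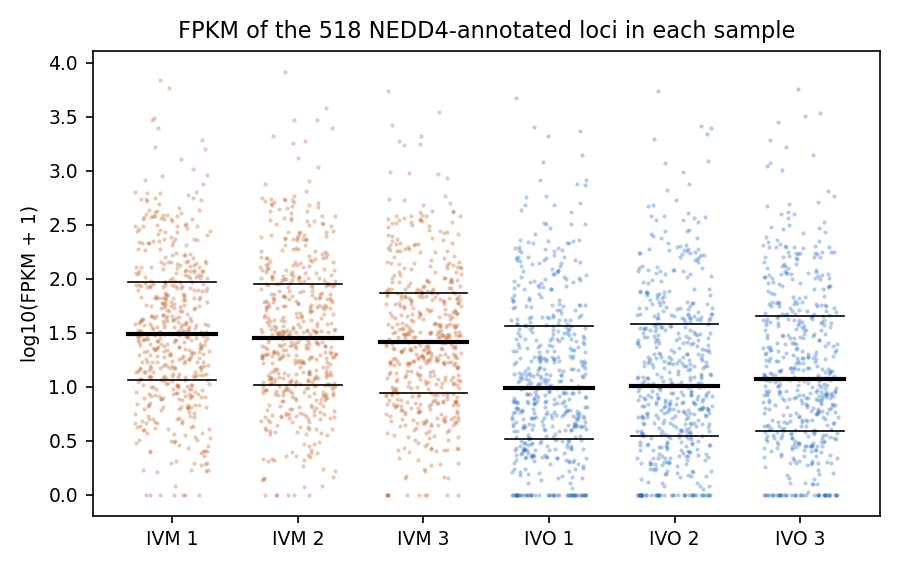
FPKM of the 518 NEDD4-annotated loci in each of the 3 IVM and 3 IVO samples, as log10(FPKM + 1), with 1 point per locus, a thick line at the median and thin lines at the quartiles. The medians are 24.7 to 30.0 FPKM in IVM and 8.62 to 10.8 FPKM in IVO, and the row of points at 0 holds 6 to 10 loci in IVM and 42 to 49 in IVO samples.

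Each row with a mean of at least 1 FPKM was tested between the groups by limma, on the scale of log2(FPKM + 1). It was called where |log2FC| ≥ 1 and the p-value, adjusted after Benjamini and Hochberg, was under 0.05. The log2FC is IVO minus IVM. Of the 518 loci, 505 passed the filter and were tested, and 235 of these (46.5%) were lower in IVO, beside 17.9% of all 18818 tested rows. No locus (0) was called higher, beside 0.606% of all tested rows, and 270 were not called. At an unadjusted limma p under 0.05, 341 of the 505 loci were lower and 5 were higher, beside 5903 and 1047 of all 18818 tested rows. The median log2FC of the tested loci was -1.21 (quartiles -1.71 and -0.79, range -5.91 to 1.45), against -0.30 over all tested rows, and it was negative at 477 loci and positive at 28. All 3 IVO values lay below all 3 IVM values at 325 loci (64.4%, beside 32.6% of all tested rows) and above them at 6 (beside 9.62%).

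The size of this difference depended on how length was handled. When each sample's trend of log2(FPKM + 1) with length was removed, 39 loci (7.72%) were lower, beside 6.98% of all tested rows, and 25 (4.95%) were higher, beside 4.83%. These shares were near those of all rows, and the median log2FC of the loci was -0.20 against 0.16 over all rows. The trend was fitted over all tested rows, these loci included, so it also takes up a difference that short rows share. An effect of length and a difference of the loci themselves therefore cannot be told apart by these counts. With fragment numbers in place of FPKM, an alternative chosen after seeing the data, 391 loci (77.4%, beside 26% of all rows) were lower, 0 were higher at the threshold (beside 0.723%), and the median was -1.85. Counts of lower loci also fell to 138 (27.3%, beside 11.2% of all rows) under median-ratio scaling, 106 (21%, beside 8.39%) under quantile normalization and 148 (29.3%, beside 11.3%) at the same sum of FPKM. Under these scalings 2 (0.396%), 6 (1.19%) and 3 (0.594%) loci were higher, beside 2.06%, 5.82% and 2.11% of all rows. Without IVM sample 1 the count was 137 (27.1%, beside 12.1% of all rows), and without IVM sample 2 it was 145 (28.7%, beside 13.8%). Whichever sample was left out, 119 loci were called lower.

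The 13 loci under the filter had a mean under 1 FPKM over the 6 samples. Beside the 5159 tested loci of the other assembled class, of which 1205 (23.4%) were lower and 32 higher with a median log2FC of -0.59, the NEDD4-annotated loci were called lower more often. Because they were also shorter, the 2 classes were set side by side within length classes. From 200 to 249 bases, 69 of 210 NEDD4-annotated loci (32.9%) and 26.6% of the other loci were lower, and the medians were -1.11 and -1.05. From 250 to 299 bases, 25 of 73 (34.2%) and 34.6% were lower, with medians of -1.10 and -1.14. Under 300 bases the 2 classes were therefore close.

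They were apart at greater lengths. From 300 to 399 bases, 79 of 124 NEDD4-annotated loci (63.7%) were lower against 38.5% of the others, and the median log2FC was -1.49 against -1.06. At 400 bases and over, 62 of 98 (63.3%) were lower against 16.3%, with medians of -1.26 and -0.23. The other loci had lower levels in both classes. Their median of the mean FPKM was 5.01 against 14.1 from 300 to 399 bases, and 3.22 against 8.40 in the last class. In the last class they were also longer (median 806.5 bases against 494). The part of these differences in the result was not tested.

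**Figure D3:**
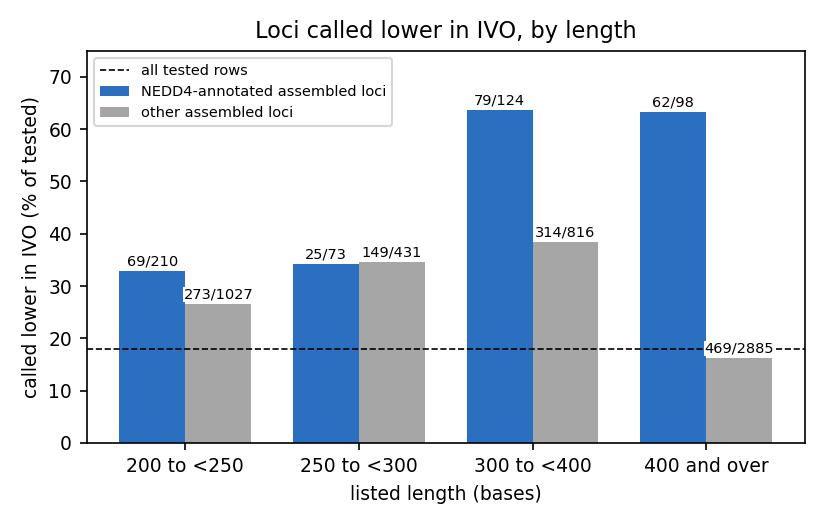
Share of tested loci called lower in IVO (percent) in 4 classes of listed length, for the NEDD4-annotated loci and the other assembled loci, with the numbers called and tested over each bar and a dashed line at 17.9% for all tested rows. The NEDD4-annotated loci reach 63.7% and 63.3% in the 2 longer classes, against 38.5% and 16.3% of the other loci.

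By level, the share of NEDD4-annotated loci called lower was 45.3% at a mean of 1 to 10 FPKM, 55.3% at 10 to 30, 44.8% at 30 to 100 and 36.8% at 100 and over. The other assembled loci had 16.7%, 34.9%, 38.9% and 32.4% in these classes. Over the 505 tested loci, Spearman's rho was -0.14 between log2FC and length, 0.20 between log2FC and mean FPKM and -0.51 between length and mean FPKM. These correlations are across loci of the same 6 libraries and are given without a test.

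Split by the best-matching protein, the share of loci called lower ranged from 39.4% to 51.0%. Of the tested loci matched to rCG56442, 101 of 198 (51.0%) were lower, with a median log2FC of -1.26. The counts were 72 of 164 (43.9%, median -1.24) for mCG1045525, 26 of 66 (39.4%, median -1.07) for mCG1042149 and 36 of 77 (46.8%, median -1.17) for all other proteins. Differences between these classes were not tested.

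**Figure D4:**
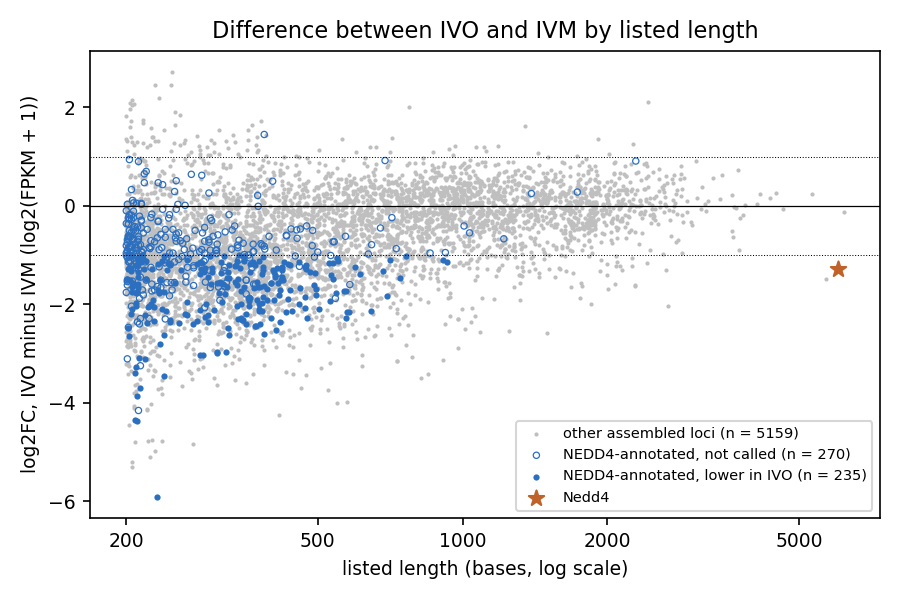
Difference between IVO and IVM, as log2FC on log2(FPKM + 1), against listed length in bases (log scale), with 1 point per tested row. Open and filled circles are the 270 NEDD4-annotated loci that were not called and the 235 called lower, grey points are the 5159 other assembled loci, the star is Nedd4 (-1.28 at 6035 bases) and dotted lines mark a log2FC of -1 and 1.

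Of the 10 loci with the highest mean FPKM, MSTRG.25371 with 291 bases was the longest and the others had 200 to 244 bases. MSTRG.19365, of 200 bases, was listed at 6988.36, 8267.89 and 5531.69 FPKM in the IVM samples and 4776.04, 5449.07 and 5760.14 FPKM in the IVO samples. The groups overlapped, and the log2FC of -0.36 (SE 0.17, limma adjusted p = 0.176) was not called. MSTRG.29905 (207 bases) at 2109.01 to 2955.99 FPKM in IVM and 2192.58 to 2846.93 in IVO, and MSTRG.6034 (206 bases) at 1768.55 to 2968.65 and 2081.83 to 3204.11, overlapped as well. MSTRG.18313 (218 bases) had its highest value in an IVO sample (3427.16 FPKM) and its lowest in an IVM sample (1276.99 FPKM), with a log2FC of 0.47 that was not called (adjusted p = 0.31). Once the trend with length was removed, MSTRG.29905 (1.15, adjusted p = 0.00692), MSTRG.6034 (1.38, 0.00995) and MSTRG.18313 (1.71, 0.0215) were called higher in IVO, while MSTRG.19365 (0.91) stayed under 1. With fragment numbers MSTRG.19365 (-1.67), MSTRG.29905 (-1.36) and MSTRG.6034 (-1.14) were called lower, so the direction at these loci depends on how length is treated.

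In the main comparison 2 of these 10 loci were called. MSTRG.25846, of 244 bases, was listed at 5853.73, 3861.36 and 3540.86 FPKM in IVM and 1406.67, 2595.00 and 1931.49 FPKM in IVO. All IVO values were below all IVM values, and the log2FC was -1.17 (SE 0.28, limma adjusted p = 0.0235). This call was lost without IVM sample 1 or 2 or IVO sample 1 or 3, and with no filter on low values (adjusted p = 0.0703). It was also lost with samples blocked by replicate number (adjusted p = 0.06) and in the 3 scalings (log2FC -0.83 to -0.93). MSTRG.29152, of 210 bases, was listed at 1047.39, 1323.07 and 970.60 FPKM in IVM and 498.55, 369.92 and 586.75 FPKM in IVO, a log2FC of -1.21 (SE 0.22, adjusted p = 0.00927) that was -0.75 to -0.88 and not called in the 3 scalings. Neither locus was lower once the trend with length was removed, where the log2FC was 0.02 for MSTRG.25846 and 0.04 for MSTRG.29152. In inferred fragments MSTRG.29152 held 464, 896 and 634 in IVM against 107, 93.9 and 159 in IVO samples.

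MSTRG.25371 stood just outside the limit of size. This locus of 291 bases was listed at 1947.00, 2090.29 and 1733.28 FPKM in IVM and 821.49, 981.87 and 1176.20 FPKM in IVO, which did not overlap. Its log2FC of -0.96 (SE 0.17, limma adjusted p = 0.00941) fell short of 1 in size and was not called, and it was 0.14 without the trend with length and -1.68, called lower, with fragment numbers. MSTRG.18263 (210 bases, log2FC -0.86, adjusted p = 0.033) likewise had IVO values below all IVM values without being called, with 0.39 and -2.08 (called lower) under these alternatives. MSTRG.9513 (205 bases) and MSTRG.36593 (211 bases) overlapped between groups, and both were called lower with fragment numbers only, at -1.53 and -1.92.

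The most negative differences belonged to short loci with almost no fragments in IVO oocytes. MSTRG.6615, of 232 bases, was listed at 142.42, 249.52 and 136.34 FPKM in IVM and 2.94, 0.00 and 4.77 FPKM in IVO, which were 92.6, 235 and 126 fragments against 1.02, 0 and 2.05. The IVM values were all far above the IVO values, and the log2FC was -5.91 (SE 0.63, limma adjusted p = 0.00187). With a pseudocount of 0.1 the same locus had a log2FC of -7.21, so the size of such values depends on the pseudocount, while the trend-corrected value of -4.70 was still called.

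MSTRG.21982 (211 bases) was listed at 56.87, 59.09 and 20.81 FPKM in IVM and at 0, 7.65 and 0 in IVO. MSTRG.5802 (209 bases) was listed at 84.31, 154.33 and 76.80 FPKM in IVM and 12.19, 0 and 7.94 in IVO. MSTRG.36493 (214 bases) was listed at 59.07, 32.04 and 46.04 FPKM in IVM and 8.61, 0 and 3.33 in IVO. None of these 3 loci overlapped between groups, and their log2FC were -4.37, -4.36 and -3.71. All were called in the main comparison, and none passed after removal of the trend with length, where the adjusted p was 0.0515, 0.0526 and 0.0599. With a pseudocount of 0.1, MSTRG.5802 and MSTRG.36493 also lost the call (adjusted p = 0.0586 and 0.0573). Leaving out 1 IVM sample ended the call of MSTRG.21982 (sample 1 or 2, adjusted p = 0.0611 and 0.0606), of MSTRG.5802 (any of the 3, 0.0534 to 0.068) and of MSTRG.36493 (sample 1 or 3, 0.065 and 0.0583).

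Loci listed at 0 in all 3 IVO samples numbered 14, of which 6 were above 0 in all 3 IVM samples and 4 were called lower. None (0) was listed at 0 in all 3 IVM samples. The shares of such rows among all rows were not counted. A locus at 0 in every IVO sample passes the filter only through its IVM values and can only be called lower. The 4 calls therefore say nothing about direction. MSTRG.28226, of 211 bases, was listed at 30.78, 4.47 and 16.43 FPKM in IVM, which were 13.9, 3.08 and 10.9 fragments, and at 0 in each IVO sample, so no fold is given.

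The values of longer loci with many fragments rest on more reads, since 1 fragment weighs little there. The 5 that follow were picked after their values were seen, among loci of 300 bases or more. MSTRG.15196, of 706 bases, was listed at 435.80, 377.82 and 329.79 FPKM in IVM and 158.38, 171.60 and 199.41 FPKM in IVO, or 3520, 3650 and 3150 fragments against 1260, 1380 and 1640. The groups did not overlap and the log2FC was -1.10 (SE 0.18, limma adjusted p = 0.00668), called whichever sample was left out. It was under 1 in size in the 3 scalings (-0.61 to -0.78) and without the trend with length (-0.54, adjusted p = 0.069). MSTRG.32190, of 434 bases, was listed at 381.04, 405.41 and 349.11 FPKM in IVM and 81.46, 97.36 and 130.02 FPKM in IVO, a log2FC of -1.89 (SE 0.21, adjusted p = 0.00202) that was also called whichever sample was left out and was -1.02 (adjusted p = 0.0173), still called, without the trend with length.

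The remaining loci picked in this way were not called in the main comparison. MSTRG.1857, of 375 bases, was listed at 358.84, 324.50 and 345.61 FPKM in IVM and 414.93, 381.77 and 395.33 in IVO, where all IVO values were above the IVM values, with a log2FC of 0.21 (adjusted p = 0.327). It was called higher without the trend with length, at 1.17 (adjusted p = 0.00693). MSTRG.8999, of 1390 bases, was listed at 30.81, 31.61 and 27.97 FPKM in IVM and 43.01, 32.81 and 32.76 in IVO, with a log2FC of 0.25 (adjusted p = 0.402). The most positive value in any tested locus was that of MSTRG.3145 (387 bases), at 3.25, 14.20 and 15.38 FPKM in IVM and 43.46, 24.96 and 17.69 in IVO, a log2FC of 1.45 (SE 0.57, adjusted p = 0.11) that was not called. The groups did not overlap there, and it was called higher under quantile normalization (1.93, adjusted p = 0.0468) and without the trend with length (2.39, 0.0366). The 3.25 FPKM of IVM sample 1 rest on few fragments, since 1 fragment at 390 bases was worth 0.346 FPKM in that sample. Without IVM sample 1 the log2FC of MSTRG.3145 was 0.82.

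The longest loci had low levels and no difference called in the main comparison. MSTRG.23182, of 2291 bases, was listed at 5.95, 4.89 and 6.05 FPKM in IVM and 15.76, 15.22 and 5.99 in IVO, where the third IVO sample was level with the IVM samples (log2FC 0.91, limma adjusted p = 0.115). It was called higher without that sample (1.32, 0.0142), under quantile normalization (1.40, 0.0298) and without the trend with length (1.20, 0.0488). MSTRG.21475 (1732 bases) lay between 3.22 and 6.45 FPKM in all samples, and MSTRG.36893 (1429 bases) lay between 0.17 and 1.58 FPKM and was not tested. Of the other loci of 200 bases named by the rule, MSTRG.19979 (308.60 to 541.04 FPKM in IVM, 320.33 to 401.63 in IVO) overlapped between groups, and it was called higher without the trend with length (1.17) and lower with fragment numbers (-1.39). MSTRG.17159 did not overlap, at 39.26 to 79.59 FPKM in IVM and 6.02 to 30.08 in IVO, but its log2FC of -1.76 (SE 0.55) missed the threshold with an adjusted p of 0.0571, and it was called lower with fragment numbers (-2.47), among rows with a mean of at least 5 FPKM (adjusted p = 0.0476) and without the third IVO sample (-2.22). The log2FC closest to 0 were those of MSTRG.5000 (-0.01), MSTRG.21225 (0.01) and MSTRG.15504 (0.03), of which MSTRG.21225 lay at 327.83 to 428.55 FPKM in IVM and 334.56 to 435.88 in IVO. Without the trend with length, MSTRG.21225 (1.16, adjusted p = 0.00891) and MSTRG.15504 (1.27, 0.0396) were called higher, and with fragment numbers MSTRG.15504 was called lower (-1.15, 0.0425).

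The gene Nedd4 itself (ENSMUSG00000032216, chr9:72569596-72657134 on GRCm39, plus strand) was lower in IVO oocytes. It was listed at 25.99, 21.57 and 25.53 FPKM in the IVM samples and 8.08, 12.11 and 8.50 FPKM in the IVO samples. No IVO value reached the IVM values, and the log2FC was -1.28 (SE 0.22, limma adjusted p = 0.00806), called whichever sample was left out. Under median-ratio scaling, quantile normalization and the same sum of FPKM the log2FC was -0.97, -0.78 and -0.96, no longer 1 in size, with adjusted p between 0.0258 and 0.0424. The library marks no strand, and how reads that match several rows were divided among them was not tested, so the values of Nedd4 and of rows with near-identical sequence are uncertain.

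Besides Nedd4, 108 Ensembl genes carried the NEDD4 ortholog, 54 lncRNA genes, 52 TEC genes and the 2 absent from the annotation used. Of the 108, 19 were tested and 6 were lower (31.6%, beside 17.9% of all tested rows). None (0) was higher at the threshold (beside 0.606%) or at an unadjusted limma p under 0.05. At that p 15 were lower, beside 5903 of all 18818 tested rows. The 19 tested genes had a median log2FC of -0.79, and all 19 values were negative. Gm12976, an lncRNA gene of 459 listed bases whose window is printed above, was listed at 65.45, 57.69 and 46.01 FPKM in IVM and 17.90, 19.28 and 20.83 in IVO, without overlap (log2FC -1.48, SE 0.20, adjusted p = 0.00378). It was no longer called under quantile normalization (-0.99) and without the trend with length (-0.65). Gm42437, which holds the same 30 bases, overlapped between groups at 18.29 to 25.51 FPKM in IVM and 16.77 to 21.88 in IVO (log2FC -0.15, adjusted p = 0.643).

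Among the 9 genes of the NEDD4 family, Nedd4 was the only one called (11.1% lower, beside 17.9% of all tested rows). Nedd4l, its closest relative and a regulator of sodium channels, had the highest level, with 638.74, 618.75 and 521.68 FPKM in IVM and 500.11, 475.22 and 504.22 in IVO (log2FC -0.26, limma adjusted p = 0.253). Wwp2, another WW-domain ligase, was listed at 359.21, 358.01 and 410.22 FPKM in IVM and 244.05, 274.55 and 321.10 in IVO, without overlap but with a log2FC of -0.43 (adjusted p = 0.11). Wwp1 was listed at 17.02, 16.60 and 15.10 FPKM in IVM and 27.19, 21.72 and 21.64 in IVO, which is the opposite direction (log2FC 0.50, adjusted p = 0.1). Itch, which acts in immune signalling, and Smurf1, Smurf2, Hecw1 and Hecw2 overlapped between groups, with log2FC from -0.37 to 0.41. Whether the difference at Nedd4 is unlike that of its relatives was not tested.

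**Figure D5:**
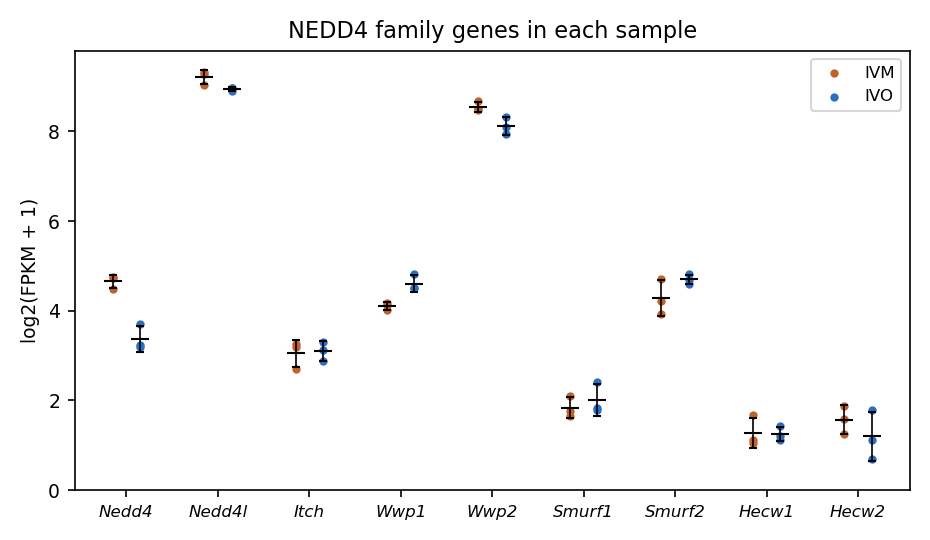
Level of the 9 NEDD4 family genes in the 3 IVM and 3 IVO samples, as log2(FPKM + 1), with 1 point per sample, a dash at the mean and bars of 1 SD. Nedd4 is separate between groups with a log2FC of -1.28, Nedd4l and Wwp2 have the highest levels, and no other member of the family was called.

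No partner of NEDD4 was called, beside 17.9% lower and 0.606% higher of all tested rows. Of the 7 adaptors, which bring NEDD4 ligases to membranes and substrates, 5 were tested and 0 were called, with 3 higher and 0 lower at an unadjusted limma p under 0.05. Ndfip1, a membrane adaptor that activates these ligases, was listed at 175.56, 142.24 and 193.82 FPKM in IVM and 255.47, 262.53 and 257.23 in IVO, with a log2FC of 0.61 (SE 0.17, adjusted p = 0.0426) that was under 1 in size. Of 6 substrates, 3 were tested and 0 called (1 lower and 0 higher at an unadjusted p under 0.05), among them Igf1r, the receptor of insulin-like growth factor 1, at 41.11, 38.12 and 29.93 FPKM in IVM and 19.77, 11.15 and 31.47 in IVO, which overlapped. The 3 subunits of the epithelial sodium channel (Scnn1a, Scnn1b and Scnn1g) were at 0 to 0.16 FPKM in all samples.

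Of 17 other HECT ligases, 15 were tested and 1 was called lower (6.67%, beside 17.9% of all tested rows). At an unadjusted limma p under 0.05, 3 of these ligases were lower and 1 was higher. The called gene was Herc1, at 1475.85, 1800.21 and 1679.24 FPKM in IVM and 813.40, 965.89 and 490.23 in IVO (log2FC -1.18, SE 0.26, limma adjusted p = 0.018). Its call was lost without any 1 of the IVM samples, without IVO sample 3 (adjusted p = 0.0215 at a log2FC of -0.89) and in the 3 scalings (Herc1 log2FC -0.73 to -0.85). The Herc1 call was also lost with no filter on low values (adjusted p = 0.0501) and without the trend with length (log2FC -0.89, adjusted p = 0.0613). Of 6 genes for E1 enzymes and their subunits, which activate ubiquitin or its relatives, 5 were tested and 0 called. This stands beside 17.9% lower and 0.606% higher of all tested rows. Among the E1 genes, 0 were lower and 1 was higher at an unadjusted p under 0.05. Over the whole pathway, 557 Ensembl genes carried the listing of ubiquitin mediated proteolysis and 163 were tested. Of these, 35 were lower (21.5%, beside 17.9% of all tested rows) and 0 were higher (beside 0.606%). These shares were near those of all rows. At an unadjusted limma p under 0.05, 57 were lower and 10 higher, beside 5903 and 1047 of all 18818 tested rows. The median log2FC of the tested pathway genes was -0.17, against -0.30 over all tested rows. The most negative were Elobl at 5985.72 to 9824.42 FPKM in IVM and 407.75 to 653.49 in IVO (log2FC -3.84), and Anapc13, a subunit of the anaphase-promoting complex, at 98.93 to 133.86 and 6.56 to 15.33 (log2FC -3.35). Gm14331 was listed at 2.40 to 6.48 FPKM in IVM and at 0 in every IVO sample. The share of lower genes in the pathway without the NEDD4 ortholog was 19.6% (28 of 143), also near the 17.9% of all tested rows.

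Oocyte markers were present in all samples. All 8 (Zp1, Zp2, Zp3, Gdf9, Bmp15, Mos, Ooep and Nlrp5) were tested, and 4 were lower in IVO (Zp1, Zp2, Zp3 and Nlrp5). That is 50%, beside 17.9% of all tested rows. The summed FPKM of the 8 markers was 4850 to 6580 for IVM and 2470 to 2940 for IVO oocytes. The 10 cumulus and granulosa markers summed to 23.8 to 33.7 FPKM in IVM and 30.4 to 35.5 in IVO, with 8 of the 10 under the filter and 1, Amh, at 0 in all samples. Most of the sum came from Cyp19a1 (16.25 to 18.76 FPKM in IVM, 17.68 to 23.13 in IVO) and Fshr (6.14 to 16.30 and 10.51 to 13.84). Has2, Ptx3 and Tnfaip6, genes of the expanding cumulus, were each higher in every IVO sample than in any IVM sample, at 0 to 0.14 FPKM in IVM and 0.07 to 0.49 in IVO, and were not tested. Few fragments lay behind them, for Ptx3 0, 0.98 and 0.963 in IVM against 5.0, 2.04 and 2.97 in IVO. Ptgs2 also had a higher mean in IVO, with overlap. The means of Inha (0.57 FPKM in IVM, 0.213 in IVO), Cyp11a1 (0.123 and 0.06) and Foxl2 (0.00667 and 0) went the other way, with overlap, and were not tested. The 3 oviduct markers summed to 0.04 to 0.14 and 0.18 to 0.39 FPKM, with 1 of them at 0 in all samples, and the 3 blood markers to 0 to 0.21 and 0.01 to 3.65 FPKM. The part of other cells in the levels of the NEDD4-annotated loci was not tested.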

How the data were processed

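Full-length cDNA was made with the SMART-Seq v4 kit, and Nextera XT libraries, which mark no strand, were sequenced as paired reads of 150 bases. The authors trimmed reads with SeqPrep and Sickle, aligned them with HISAT2 2.1.0 to GRCm39 and deposited an FPKM for each row and sample from RSEM 1.3.3, with a listed length and annotation. They tested counts with DESeq2 1.24.0. The assembler of the unnamed loci and the tool behind their annotation are not given in the sources used here, and the positions and sequences of these loci were not used here. The deposited group means in FPKM were used only to check. The columns with annotation were used to select rows, to describe the loci and to split them by best-matching protein.

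Here log2(FPKM + 1) of the 18818 rows with a mean of at least 1 FPKM was fitted by group with limma 3.58.1 in R 4.3.3 (lmFit, eBayes with trend), two-sided, with Benjamini-Hochberg adjustment over all tested rows. A call needed |log2FC| ≥ 1 and an adjusted p under 0.05. On simulated data for IVO against IVM with 200 of 18818 rows changed by 2 on the log2 scale, the fit called 142 (71%) and 8 unchanged rows. The changed rows were drawn from those with a mean log2(FPKM + 1) above 2, with as many raised as lowered. The 71% therefore does not cover low rows or changes mostly in 1 direction. Python 3.11.15, pandas 2.3.3, numpy 2.4.6 and scipy 1.17.1 were used.

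Depth and fragment length were inferred per sample as those that put low FPKM on whole fragments. Within 0.1 of a whole number lay 62.7% to 72.3% of the values under 4.5 fragments per sample, and 60.8% of the 413 such values of the NEDD4-annotated loci. On 2 simulated libraries the error was at most 1.18% in depth and 2 bases in length. Fragment numbers assume 1 transcript of the listed length. They are approximate, and intervals or floors cover counting error only.

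The named loci are the 10 with the highest mean FPKM, the 5 most negative and 5 most positive called loci without overlap between groups (no positive one existed), the longest 3, the shortest 3 and the 3 closest to 0, and the named genes are the lists given and the extremes of the pathway. MSTRG.15196, MSTRG.32190, MSTRG.1857, MSTRG.8999, MSTRG.3145, Gm12976 and Gm42437 fall outside this rule and were chosen after their values were seen. The loci and lists were chosen with earlier results of these data known. The 20-base word was counted exactly, on both strands, in reference transcripts and in GRCm39.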

Additional observations from a re-analysis of the deposited data

How the results depend on the processing

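The main counts were 235 loci lower and 0 higher, and the alternatives moved them as follows. A pseudocount of 0.1 gave 1 higher. Median-ratio scaling gave 138 lower and 2 higher, quantile normalization 106 and 6, and the same sum of FPKM 148 and 3, and the median of all tested rows went from -0.30 to -0.04, 0.17 and -0.03. The share of lower among all calls was 96.7% in the main comparison and 84.4%, 59.0% and 84.3% under these scalings. Removal of the length trend gave 39 lower and 25 higher (59.1% of all calls lower), and 15 and 15 together with the replicate block. Fragment numbers, added after seeing the data, gave 391 lower. Leaving out 1 sample at a time gave 137 to 249 lower and 0 to 1 higher loci. For the Ensembl genes of the ubiquitin pathway, 35 lower and 0 higher became 21 and 2, 13 and 7, and 21 and 2 under the 3 scalings, 16 and 6 without the length trend, and 6 and 2 with the block as well. They had 1 higher with eBayes without trend and with fragment numbers, and 21 lower or 1 higher at the extremes of leaving out a sample. Nedd4 moved from -1.28 to -0.97, -0.78 and -0.96 under the scalings and to -1.03 (adjusted p = 0.0715) without the length trend and with the block. MSTRG.25846, MSTRG.29152 and MSTRG.29905 turned to 0.02, 0.04 and 1.15 without the length trend, with and without the block, MSTRG.19979 to 1.17 without the length trend, and MSTRG.6034 and MSTRG.15504 to -1.14 and -1.15 with fragment numbers. The cause of these changes was not tested.

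The replicate block alone left 206 loci lower, 28 pathway genes lower and Nedd4 at -1.28 (adjusted p = 0.0328). Same-numbered samples did not deviate together from their group means across all tested rows (r = -0.0618, -0.0176 and -0.107). The labels do not say whether same-numbered samples belong together. The correlations cannot decide it, since they show only that no shared deviation was seen. With no filter 168 loci were lower, and with a mean of at least 5 FPKM 214. Over 69 named loci and genes and 17 alternatives, 943 of 1145 values kept their direction and side of the threshold, 48 lost and 38 gained a call in the same direction, 9 reversed with a call in either fit (those just named), and 107 changed sign with a call in neither. Depth limits the loci in the IVO samples, since under 10 fragments lay behind the median locus in 1 IVO sample.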
